A study of Arabidopsis thaliana with 18 samples.

Results

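Leaf transcriptomes of Arabidopsis 35S:RPS4-HS (35S:RPS4 hereafter) taken 4 h after a move from 28 °C to 19 °C were compared with those of the same line kept at 28 °C (0 h), to ask which genes leaf cells turned on and off in the first hours after the receptor was released. The comparison used 6 of the 18 libraries of the series, 3 at 4 h and 3 at 0 h, chosen by the genotype and time in their labels. 35S:RPS4 is a transgenic line in the Col-0 accession that carries the resistance gene RPS4 under the constitutive 35S promoter of cauliflower mosaic virus, so the transgene is driven in most leaf cell types and not only where the native gene is active. All plants had spent 3.5 weeks at 28 °C and met no pathogen. The libraries of the Col-0 wild type at 0 h and 4 h, 3 each, served to separate the response to the temperature shift itself, and the 3 libraries of 35S:RPS4 at 8 h showed how changes went on. The labels name 1 transgenic line and do not state whether the libraries of a group stem from different plants. The p-values therefore cover only the spread among these libraries, which may be technical. Because hours at 19 °C and the hour of the day advanced together, their parts in a change within a line cannot be told apart.

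RPS4 belongs to the TNL class of intracellular receptors, which carry a TIR domain, a nucleotide-binding domain and leucine-rich repeats. Together with RRS1 it detects the bacterial effector AvrRps4, and TNL signals run through EDS1, which pairs with PAD4 or SAG101 and acts with helper receptors of the ADR1 and NRG1 families. Calcium influx, mitogen-activated protein kinases, WRKY and CBP60 transcription factors and the hormone salicylic acid (SA) are known steps of the resulting effector-triggered immunity, and warm growth conditions hold many TNL-driven responses back.

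Levels are given as CPM, counts scaled to library size by trimmed mean of M-values (TMM), for replicates 1, 2 and 3 in that order, with no correction for gene length, so levels were compared between libraries and not between genes. Changes are log2 fold changes (log2FC) ± standard error (SE), with n = 3 libraries per group. The SE was worked back from the log2FC and the F statistic of edgeR's quasi-likelihood test. That test was fitted to all 18 libraries, so the SE draws on a spread estimated over all groups. A gene was called, and is said to have risen or fallen, at a Benjamini-Hochberg adjusted p under 0.01 in edgeR's quasi-likelihood test and a fold change over 2. The 6 libraries held 23876651 to 31465989 counts in genes, so 3 counts in 1 library stood for 0.0953 to 0.126 CPM. Such floors and the intervals on ratios cover counting error alone. Genes were named by a rule (given with the methods), and a further set listed there was named after their values were seen. Gene lists are selections from their classes, chosen with earlier results of these data known. Counts of list members therefore do not describe whole classes. Over all genes tested, 18.3% rose and 14.8% fell in 35S:RPS4 at 4 h.

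RPS4 (AT5G45250, chromosome 5, 18321764 to 18326175, minus strand, 5 exons, TAIR10.1) was examined first, as a test of the labels. The transgenic line had 995, 954 and 772 CPM at 0 h and 2046, 1893 and 2604 CPM at 4 h, against 12.7, 13.2 and 12.2 CPM at 0 h and 14.8, 14 and 15 CPM at 4 h in Col-0. All 6 libraries of the line therefore lay far above every Col-0 library. Within the line the 4 h libraries all exceeded the 0 h libraries (log2FC 1.27 ± 0.15, adjusted p = 1.88e-06), a call that ended when only the library total was used for scaling (log2FC 0.99). AT5G24240, a gene for a phosphatidylinositol 4-kinase gamma-like protein (AT5G24240, chromosome 5, 8230916 to 8234150, minus strand, 3 exons), stood at 20.5, 20.1 and 22.9 CPM at 0 h and 71, 126 and 163 CPM at 4 h in 35S:RPS4 and at 0.139, 0.266 and 0.147 CPM at 0 h in Col-0. It rose further at 4 h (log2FC 2.50 ± 0.35, adjusted p = 1.04e-05), and it overlaps an exon on the opposite strand.

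Of 20023 genes that passed the low-count filter, 3663 (18.3%) had risen and 2972 (14.8%) had fallen at 4 h. In Col-0 the same 4 h brought rises of 774 genes (3.87%) and falls of 960 (4.79%). The rises in 35S:RPS4 were also the larger changes. Their median absolute log2FC was 2.63, against 1.82 for the falls, and 834 rises (22.8%) but 101 falls (3.4%) were more than 32-fold. Genes that rose took up 5.37% to 5.76% of the counts of the 0 h libraries and 35.6% to 41.9% of those at 4 h, whereas the same genes held 8.23% to 8.85% in Col-0 at 4 h. Genes that fell went from 22.6% to 22.9% of the counts down to 5.17% to 6.55%. This shift in make-up bears on the split between rises and falls. TMM factors were 0.948 to 1.02 at 0 h and 0.797 to 0.838 at 4 h, and scaling by the library total alone gave 3043 rises and 3941 falls (43.6% of calls higher, against 55.2%) and moved the median log2FC of all genes from 0.03 to -0.23.

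Many of the rises began from close to nothing. Among the genes that rose, 1070 had a mean under 1 CPM at 0 h, and of these 350 reached at least 10 CPM and 88 at least 100 CPM at 4 h. Conversely, 727 genes that fell ended under 1 CPM. The libraries of both groups did not overlap for 3651 of the rises and 2962 of the falls, but also not for 12748 (63.7%) of all genes tested.

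The test of whether the response differed between the lines, the interaction of line and shift, called 3007 genes (15.0%) with a larger and 2049 (10.2%) with a smaller log2FC in 35S:RPS4 than in Col-0. Of the 3663 genes that rose in 35S:RPS4, 2552 (69.7%) had a positive interaction call, and of the 2972 that fell 1594 (53.6%) had a negative one. Rises shared with Col-0 numbered 384, or 10.5% of those in 35S:RPS4 and 49.6% of those in Col-0. Shared falls numbered 418, or 14.1% and 43.5%. A further 197 genes rose in 35S:RPS4 and fell in Col-0. That last count rested on Col-0 libraries, since leaving out Col-0 0 h replicate 1 raised it to 292 and leaving out replicate 2 lowered it to 112.

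**Figure D1:**
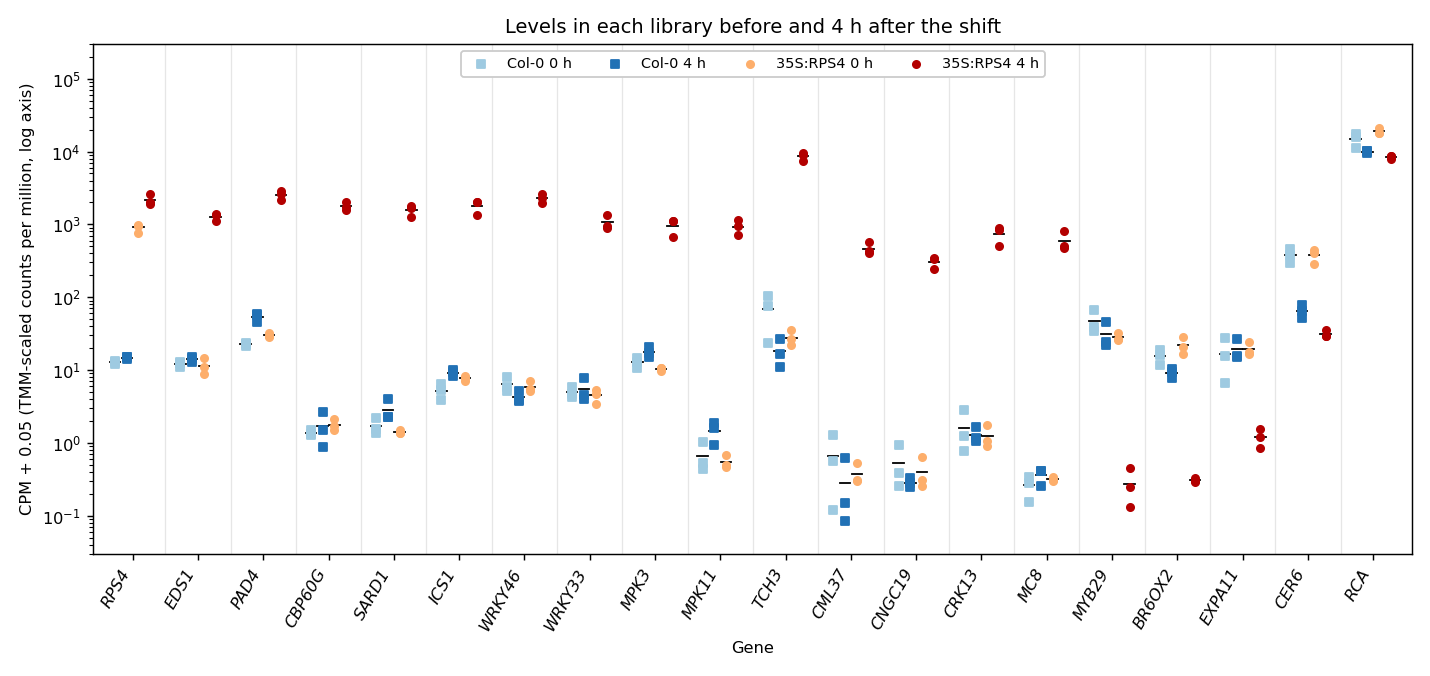
CPM of 20 genes in each library of Col-0 and 35S:RPS4 at 0 h and 4 h, on a log axis after adding 0.05 CPM; each point is 1 library. RPS4 is high in both 35S:RPS4 groups, EDS1, CBP60G, SARD1, WRKY46, MPK11 and MC8 stand apart in the 35S:RPS4 libraries at 4 h, and MYB29, BR6OX2 and EXPA11 are lowest there.

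Promoter letters were read from the TAIR10.1 genome of RefSeq for 27443 genes, from 250 bases before to 50 bases after the annotated start, and searched on both strands for 5 short motifs. These were CGCG, the core of the site of CAMTA factors, which are activated by calmodulin; TTGAC, the W-box core that WRKY factors bind; GAANNTTC, a core of the heat shock element; CCGAC, the core of the cold-response element bound by CBF factors; and AAAATATCT, the evening element of clock-controlled genes. TTGAC was present in 50.5% of all windows, in 63.0% of windows of genes that rose, in 70.7% of those that rose more than 32-fold and in 46.7% of those that fell. CGCG was present in 13.0% of all windows, 18.7% for rises and 10.8% for falls. GAANNTTC went from 11.6% of all windows to 17.1% for rises and 24.9% for rises over 32-fold. CCGAC was in 15.0% of all windows, 15.3% for rises, 13.2% for rises over 32-fold and 14.8% for falls, each of these classes under the 17.2% of genes not called. AAAATATCT was in 2.82% of all windows, 5.16% for rises and 1.55% for falls. Over the windows of genes tested alone the shares were 50.9% for TTGAC, 14.1% for CGCG, 11.8% for GAANNTTC, 16.5% for CCGAC and 3.1% for AAAATATCT. The windows of genes that rose, fell or were not called had a mean GC content of 31.4%, 31.7% and 32.5%. A match gives only the presence of letters and was not tested as a binding site.

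Stretches of 250 bases up to the annotated start are shown for 6 genes whose values follow, 1 for each motif and a second for the heat shock core, written 5′ to 3′ on the strand of the gene, with motif letters on either strand in capitals. SARD1 (chr1:27749249-27749498, minus strand) holds 4 matches to TTGAC, MKK4 (chr1:19154073-19154322, plus strand) 3 to CGCG, and CML37 (chr5:16943821-16944070, minus strand) and AT3G46230, a small heat shock protein gene (chr3:16984868-16985117, minus strand), 2 each to GAANNTTC. LTI30 (chr3:18940393-18940642, plus strand) holds 3 matches to CCGAC and FKF1 (chr1:25508389-25508638, plus strand) 1 to AAAATATCT.
SARD1: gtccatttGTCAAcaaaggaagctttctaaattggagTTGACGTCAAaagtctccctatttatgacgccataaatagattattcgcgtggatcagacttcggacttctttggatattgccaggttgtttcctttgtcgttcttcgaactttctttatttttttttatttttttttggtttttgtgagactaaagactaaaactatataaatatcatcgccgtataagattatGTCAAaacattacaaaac
MKK4: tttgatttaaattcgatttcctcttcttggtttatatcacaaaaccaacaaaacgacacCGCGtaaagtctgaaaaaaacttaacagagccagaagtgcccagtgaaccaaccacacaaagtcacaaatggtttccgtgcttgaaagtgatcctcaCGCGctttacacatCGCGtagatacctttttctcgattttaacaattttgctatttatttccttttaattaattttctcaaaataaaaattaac
CML37: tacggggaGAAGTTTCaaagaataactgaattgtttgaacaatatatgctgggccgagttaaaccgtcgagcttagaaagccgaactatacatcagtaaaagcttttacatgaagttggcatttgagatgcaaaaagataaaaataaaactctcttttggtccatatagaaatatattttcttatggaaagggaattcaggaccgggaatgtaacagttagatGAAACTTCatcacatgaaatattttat
AT3G46230: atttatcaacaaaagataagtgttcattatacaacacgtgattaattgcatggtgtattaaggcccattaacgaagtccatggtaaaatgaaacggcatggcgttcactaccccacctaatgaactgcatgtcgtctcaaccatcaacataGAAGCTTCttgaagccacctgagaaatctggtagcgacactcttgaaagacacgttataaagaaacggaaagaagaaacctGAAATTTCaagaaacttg
LTI30: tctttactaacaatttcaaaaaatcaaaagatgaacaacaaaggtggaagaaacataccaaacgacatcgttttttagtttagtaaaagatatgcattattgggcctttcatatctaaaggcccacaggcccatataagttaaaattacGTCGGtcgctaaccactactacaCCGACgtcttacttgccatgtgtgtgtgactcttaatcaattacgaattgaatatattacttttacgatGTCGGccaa
FKF1: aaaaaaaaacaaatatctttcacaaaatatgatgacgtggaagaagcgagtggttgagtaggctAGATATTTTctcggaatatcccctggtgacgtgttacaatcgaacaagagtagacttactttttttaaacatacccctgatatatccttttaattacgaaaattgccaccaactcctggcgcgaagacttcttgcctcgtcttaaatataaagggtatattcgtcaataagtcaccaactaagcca
CML37 and AT3G46230 each hold 2 matches to GAANNTTC, but these differ in their N letters and in the bases beside them. CML37 rose and AT3G46230 fell at 4 h.

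**Figure D2:**
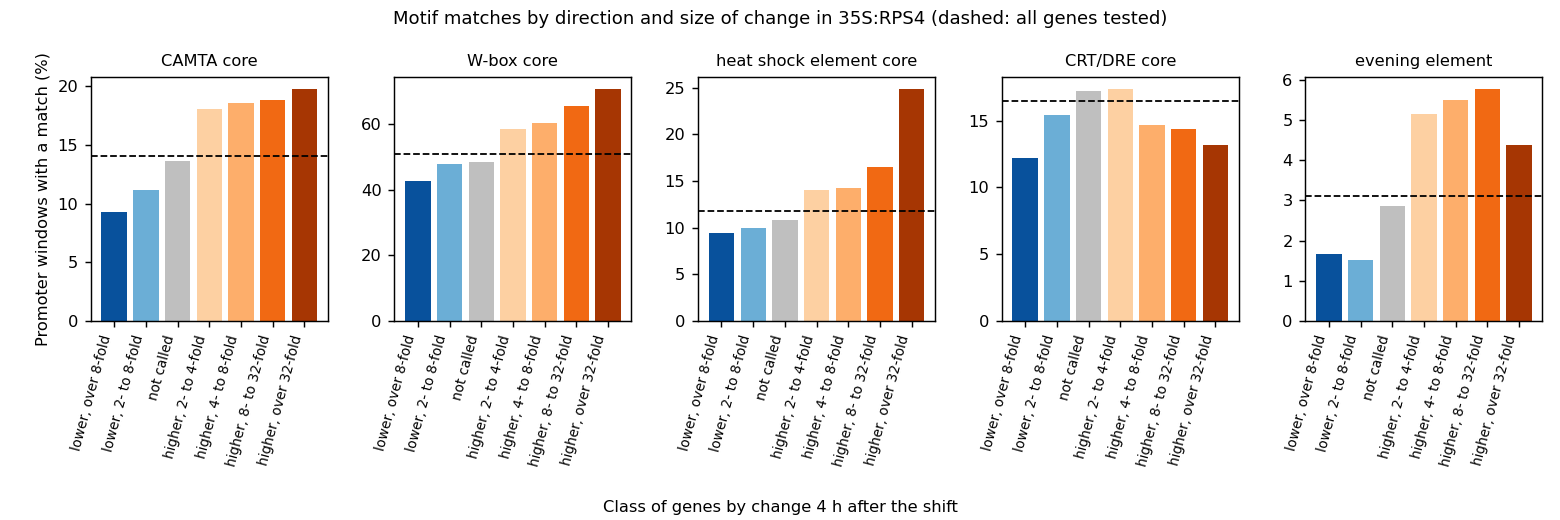
Share of promoter windows (in percent) that hold each of 5 motifs, for genes grouped by their change at 4 h in 35S:RPS4; bars start at 0 and dashed lines give the share over all genes tested. TTGAC and GAANNTTC are most frequent among genes that rose more than 32-fold (70.7% and 24.9%), and CCGAC has no such step.

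The EDS1 hub rose as a whole. Its 10 measured members, EDS1 and its relatives, PAD4, SAG101, NDR1 and the helper receptors, had all risen, with log2FC from 2.79 for NRG1.1 to 6.81 for EDS1 and a median of 5.31, against a median of 0.03 over all genes tested. Their summed level was 127 to 131 CPM in the 0 h libraries and 5884 to 6835 CPM at 4 h. In Col-0, 2 of the 10 rose and 1 fell (median 0.15), and the interaction called 9. The level of EDS1 itself was 10.9, 8.82 and 14.5 CPM at 0 h and 1375, 1125 and 1344 CPM at 4 h (log2FC 6.81 ± 0.19, adjusted p = 1.74e-13). PAD4, its lipase-like partner, went from 29.1, 32.3 and 28.4 CPM to 2589, 2147 and 2899 CPM (log2FC 6.41 ± 0.17, adjusted p = 6.94e-14). ADR1-L1, a helper receptor that works with PAD4, gave 23.8, 22.1 and 22.4 CPM at 0 h and 1047, 1337 and 1260 CPM at 4 h (log2FC 5.74 ± 0.17), and EDS1B, the second EDS1 copy of Col-0, 0.508, 0.124 and 0.0736 CPM at 0 h and 12.8, 10.5 and 11.2 CPM at 4 h (log2FC 5.51 ± 0.62). For none of these genes did a 4 h library reach the range at 0 h, and EDS1 and EDS1B are similar enough in sequence that reads may be split between them. NDR1, known for signalling by receptors with a coiled-coil domain, was among the 10 as well (log2FC 4.85).

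Receptor genes of the lists rose too. All 13 TNL genes of the list were higher at 4 h, from RRS1B, the relative of RRS1, at the lower end to VICTR (log2FC 7.64) at the upper, with a median of 2.83. Of these, 3 also rose in Col-0, and 12 had an interaction call. The list is a selection, so the count does not describe all TNL genes. RRS1, the partner of RPS4, moved from 14.7, 14.3 and 9.79 CPM to 32.1, 33 and 42.6 CPM (log2FC 1.47 ± 0.27, adjusted p = 1.80e-04). RPP4, a downy mildew resistance gene, gave 37.2, 32.8 and 27.5 CPM at 0 h and 1491, 1348 and 1572 CPM at 4 h (log2FC 5.50 ± 0.19, adjusted p = 1.37e-12), and its neighbours in the same cluster, RPP5 and SNC1, had log2FC of 3.77 and 2.94. Reads among these near-identical cluster genes are uncertain. RPS6, a receptor for another bacterial effector, gave 51.1, 51.2 and 33 CPM at 0 h and 848, 694 and 999 CPM at 4 h (log2FC 4.23 ± 0.22). VICTR was the gene of this list with the largest log2FC, at 0.635, 1.15 and 0.663 CPM at 0 h and 170.0, 132 and 181 CPM at 4 h (log2FC 7.64 ± 0.27). The gaps between both times exceeded the spread of each group for all 3. RPS4 at the lower end of this list is the transgene and the native gene together.

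Among 7 receptors with a coiled-coil domain (CNL), 4 rose (57.1%, against 18.3% of all genes tested) and 1 fell (14.3%, against 14.8%). RPS2, which guards RIN4, stood at 3.56, 4.04 and 4.12 CPM at 0 h and 54.6, 63.2 and 55.1 CPM at 4 h (log2FC 3.88 ± 0.24, adjusted p = 6.68e-10), and ZAR1, which forms a pore on activation, at 86.3, 79.4 and 75 CPM at 0 h and 994, 1001 and 1105 CPM at 4 h (log2FC 3.69 ± 0.20). SUMM2, which watches over the MEKK1 to MPK4 kinase cascade, ran the other way at 17.1, 17.1 and 19.5 CPM at 0 h and 3.05, 4.5 and 3.39 CPM at 4 h (log2FC -2.29 ± 0.17, adjusted p = 7.94e-09). In Col-0 edgeR called 0 of the 7, with 2 lower at an unadjusted p under 0.05, and DESeq2 and limma voom called 0.

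Genes of cell-surface immunity rose as well. Of 18 pattern receptors, co-receptors and their downstream parts, 18 rose (median 4.20), 17 with an interaction call, while 2 rose and 2 fell in Col-0. The list ranges from RBOHF, an NADPH oxidase gene (log2FC 1.45), to FRK1, the classic marker kinase of flagellin treatment (0.159, 0.288 and 0.0736 CPM at 0 h and 18.6, 10.8 and 12.4 CPM at 4 h, log2FC 6.32 ± 0.76, adjusted p = 1.99e-06). FLS2, the flagellin receptor, moved from 2.86, 1.77 and 2.21 CPM to 48.9, 33.1 and 41.2 CPM (log2FC 4.16 ± 0.42) and BIK1, the kinase that relays its signal, from 5.08, 5.44 and 5.71 CPM to 238, 236 and 357 CPM (log2FC 5.68 ± 0.29). RBOHD, the oxidase behind the reactive oxygen burst, rose as well (44.5, 38 and 39.8 CPM at 0 h and 486, 559 and 688 CPM at 4 h, log2FC 3.82 ± 0.18). None of these 4 h libraries overlapped the 0 h libraries. The precursors of the damage peptides, PROPEP1, PROPEP2 and PROPEP3, rose with log2FC of 3.32, 10.18 and 7.19. PROPEP2 had 0 counts at 0 h and was at least 147-fold higher at 4 h. The interaction called 0 of these 3 in edgeR (1 at an unadjusted p under 0.05) and 2 in DESeq2 and in limma voom.

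The 12 cysteine-rich receptor kinases examined all rose (median 6.71), and 11 had a positive interaction. In Col-0 edgeR, DESeq2 and limma voom called 0 of the 12, with 2 lower at an unadjusted p under 0.05. CRK13 moved from 0.857, 1.73 and 0.994 CPM to 836, 501 and 898 CPM (log2FC 9.30 ± 0.49, adjusted p = 8.43e-11) and CRK45 from 1.65, 2.39 and 2.13 CPM to 644, 534 and 708 CPM (log2FC 8.26 ± 0.97). CRK7 went from 0.207 ± 0.0348 to 48.8 ± 27.2 CPM (mean ± SD, log2FC 7.86 ± 0.54), with replicate 2 low at 4 h, yet still above the 0 h range. Several CRK genes stand in tandem arrays, where near-identical copies make single values uncertain.

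**Figure D3:**
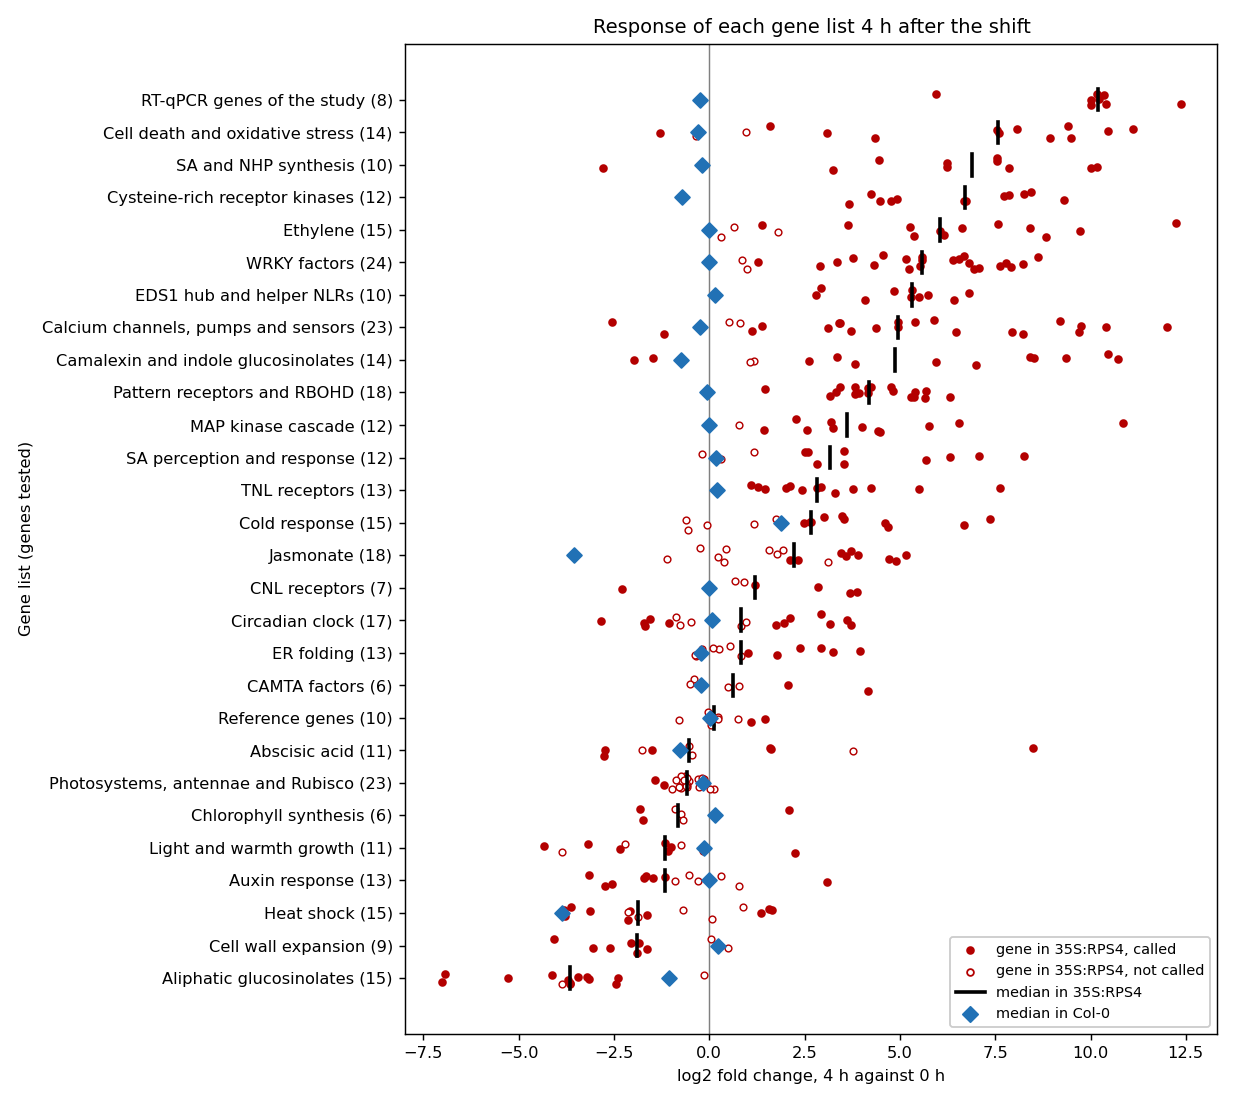
log2FC of 35S:RPS4 at 4 h against 0 h for each tested member of the gene lists shown, with filled points for called genes, black bars for list medians and blue diamonds for the medians in Col-0. The immediate-early, PROPEP, SA breakdown, cell division and marker lists are left out. The EDS1 hub, WRKY and CRK lists lie right of 0, with medians of 5.31, 5.58 and 6.71. The SA synthesis and cell death lists have medians of 6.89 and 7.57, with their lowest members, EPS1 and CAT2, at -2.79 and -1.29. The aliphatic glucosinolate list lies to the left, with a median of -3.65.

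Genes for the synthesis of SA and of N-hydroxypipecolic acid (NHP), the mobile signal of systemic resistance, and for its regulation mostly rose at the transcript level. The list holds transcription factor genes of the CBP60 family besides enzymes and an exporter, so its count is not one of synthesis steps. Of 10 genes 9 rose and 1 fell, with a median log2FC of 6.89, while 2 fell in Col-0. The transcription factor genes CBP60G and SARD1, which drive this synthesis, started near nothing. CBP60G gave 1.65, 1.44 and 2.1 CPM at 0 h and 1730, 1579 and 2059 CPM at 4 h (log2FC 10.01 ± 0.41, adjusted p = 5.17e-12) and SARD1 gave 1.46, 1.32 and 1.32 CPM at 0 h and 1657, 1276 and 1786 CPM at 4 h (log2FC 10.16 ± 0.31, adjusted p = 3.51e-13). The SARD1 stretch shown earlier holds 4 matches to TTGAC, 2 of them end to end on opposite strands. On its own strand each match is followed by A or G. ICS1, the isochorismate synthase, stood at 8.22, 7.09 and 7.73 CPM at 0 h and 2000, 1327 and 2000 CPM at 4 h (log2FC 7.85 ± 0.23, adjusted p = 2.70e-13). PBS3, which joins glutamate to isochorismate, went from 6, 9.02 and 10.9 CPM to 1752, 1302 and 1823 CPM (log2FC 7.56 ± 0.27). In all 4 genes the 4 h libraries lay clear above the 0 h range. EDS5, the exporter of isochorismate from plastids, rose as well (18.8, 17.1 and 16.4 CPM at 0 h and 1431, 1025 and 1511 CPM at 4 h, log2FC 6.25 ± 0.24). On the NHP side ALD1 gave 0.159, 0.783 and 0.0736 CPM at 0 h and 26.8, 13.5 and 33.1 CPM at 4 h and FMO1 0.0635, 0.247 and 0.184 CPM at 0 h and 30.7, 22 and 37.6 CPM at 4 h, with log2FC of 6.24 and 7.54. These levels were far from those at 8 h, which were 947, 829.8 and 798 CPM and 1051, 597 and 670.5 CPM. EPS1, which completes SA from the PBS3 product, was the member that fell (18, 12.1 and 28.3 CPM at 0 h and 3.55, 3.13 and 1.82 CPM at 4 h, log2FC -2.79 ± 0.35, adjusted p = 3.21e-06), and it fell in Col-0 too (log2FC -2.10). SARD1 and EDS5 overlap exons on the other strand.

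Genes of SA breakdown were not called higher at 4 h. Of 4 genes, edgeR, DESeq2 and limma voom called 0 higher (1 at an unadjusted p under 0.05), and UGT74F2, which makes SA glucose ester, fell (64.8, 49 and 58.3 CPM at 0 h and 10.5, 12.6 and 9.33 CPM at 4 h, log2FC -2.41 ± 0.19, adjusted p = 1.20e-08). The SA hydroxylase gene S3H and UGT76B1, which glucosylates SA and NHP, were picked because of their later change. S3H stood at 0, 0.0412 and 0.0368 CPM at 0 h and 0.1, 0 and 0.0808 CPM at 4 h, a range of a few counts per library, and reached 7.53, 5.61 and 7.66 CPM at 8 h. UGT76B1 stood at 0.254, 2.1 and 0.368 CPM at 0 h and 1.7, 2.31 and 1.29 CPM at 4 h and reached 2529, 2576 and 2195 CPM at 8 h (log2FC 10.42 ± 0.80, adjusted p = 9.81e-09 from 4 h to 8 h). All 4 genes of the list were called higher at 8 h than at 4 h (background 13.7%; median log2FC 5.03, against -0.21 over all genes tested), while SA synthesis genes had 5 further rises and 2 falls. The mean log2 level of the synthesis list was 2.40 to 2.58 at 0 h, 7.83 to 8.29 at 4 h and 9.01 to 9.20 at 8 h, and that of the breakdown list 1.85 to 2.32, 1.82 to 2.03 and 6.89 to 6.96.

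Among 12 genes of SA perception and response, 9 rose (median 3.18), with 9 positive interaction calls, and in Col-0 4 rose and 1 fell (median 0.18). NPR3, a receptor and repressor in the SA pathway, moved from 5.4, 7.54 and 5.23 CPM to 395, 436 and 620.4 CPM (log2FC 6.32 ± 0.24, adjusted p = 2.27e-12), and NIMIN1, which binds NPR1, from 0.0317, 0.371 and 0.184 CPM to 59.6, 53.5 and 59.6 CPM (log2FC 8.26 ± 0.47). Both 4 h groups lay clear above 0 h. PR1, the usual marker of SA signalling, was not called: it stood at 0.0635, 0.453 and 0.11 CPM at 0 h and 0.2, 1.06 and 0.0404 CPM at 4 h, in overlapping ranges (log2FC 1.18 ± 0.79, adjusted p = 0.214). At 8 h it had reached 976, 817 and 749.8 CPM. PR2 and PR5, further defence marker genes, had log2FC of 2.50 and 3.53 at 4 h, both called.

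**Figure D4:**
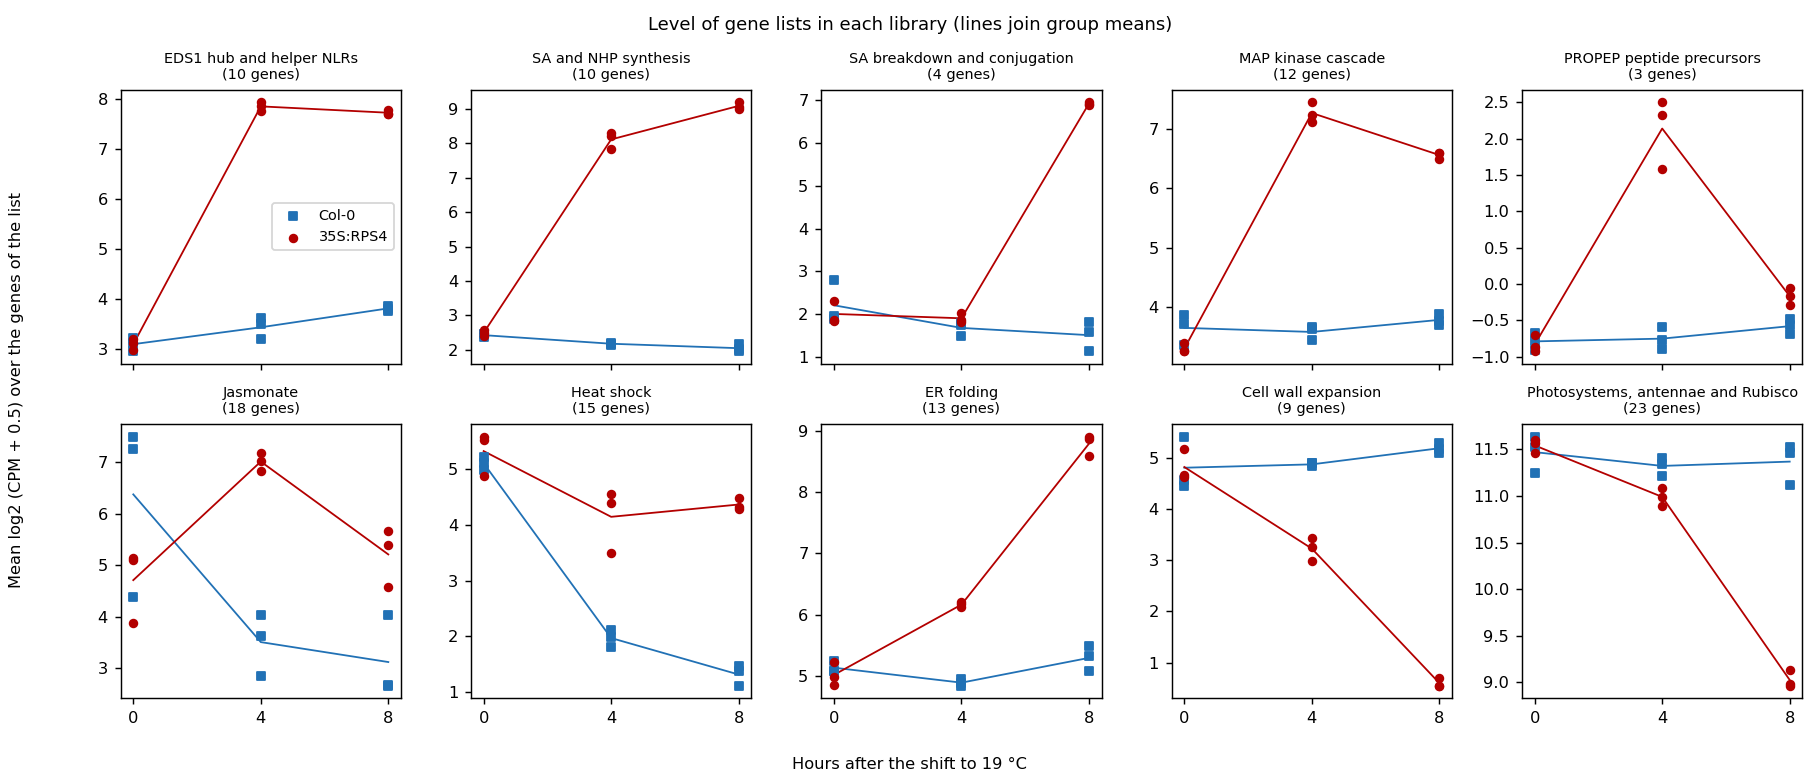
Mean log2(CPM + 0.5) of 10 gene lists in each library at 0 h, 4 h and 8 h, in Col-0 and in 35S:RPS4; each point is 1 library. In 35S:RPS4 the EDS1 hub is at 7.75 to 7.93 at 4 h and 7.69 to 7.77 at 8 h, whereas SA breakdown is at 1.82 to 2.03 at 4 h and 6.89 to 6.96 at 8 h.

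WRKY transcription factor genes, 24 in the list, gave 22 rises (median 5.58), with 20 interaction calls. The exceptions were WRKY41 (log2FC 0.86) and WRKY8 (0.98). WRKY46, an SA-linked factor, stood at 5.4, 5.07 and 7.1 CPM at 0 h and 1979, 2272 and 2640 CPM at 4 h (log2FC 8.61 ± 0.30, adjusted p = 1.50e-12), and WRKY33, which activates camalexin synthesis, at 5.27, 4.7 and 3.31 CPM at 0 h and 896, 951 and 1356 CPM at 4 h (log2FC 7.91 ± 0.37, adjusted p = 2.74e-11). WRKY51 gave 0.127, 0.618 and 0.184 CPM at 0 h and 103, 79.1 and 84.9 CPM at 4 h (log2FC 8.22 ± 0.48) and WRKY54, a relative of WRKY70, 0.444, 0.701 and 1.88 CPM at 0 h and 198, 205 and 258 CPM at 4 h (log2FC 7.78 ± 0.67). None of the 4 h libraries of these genes came near the 0 h range. In Col-0 1 of the 24 rose and 1 fell.

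Kinase cascade genes behaved alike, with 11 of 12 risen (median 3.62) and all 12 called by the interaction. In Col-0 edgeR called 0 of them, with 5 higher and 4 lower at an unadjusted p under 0.05, DESeq2 called 1 in each direction and limma voom 0. MPK3, a central kinase of immune signalling, moved from 10.7, 10.5 and 9.57 CPM to 672, 1102 and 1111 CPM (log2FC 6.55 ± 0.24, adjusted p = 1.69e-12), and MKK4, which activates it and whose promoter has 3 CGCG cores, from 12.6, 11.2 and 13.7 CPM to 625, 641 and 761 CPM (log2FC 5.75 ± 0.20). MPK6, the close relative of MPK3, was the member not called, at 25, 30.1 and 17.2 CPM at 0 h and 40.8, 34.4 and 48.3 CPM at 4 h (log2FC 0.77 ± 0.16, adjusted p = 5.60e-04). The widest change was in MPK11, a kinase related to MPK4, which went from 0.413, 0.453 and 0.626 CPM to 949.6, 708 and 1133 CPM (log2FC 10.86 ± 0.41, adjusted p = 2.44e-12). AP2C1, a phosphatase gene that restrains these kinases, rose as well (log2FC 4.47).

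Genes of calcium entry, export and sensing moved in both directions. Of 23 genes, 19 rose and 2 fell (median 4.94), and 21 interaction calls were positive and 2 negative. The channel gene CNGC19 gave 0.254, 0.206 and 0.589 CPM at 0 h and 339.6, 242 and 341 CPM at 4 h (log2FC 9.76 ± 0.38, adjusted p = 3.27e-12). The calmodulin-like genes CML37 and CML38 gave 0.476, 0.247 and 0.258 CPM at 0 h and 399, 424 and 567 CPM at 4 h (log2FC 10.41 ± 0.62) and 0.127, 0.33 and 0.699 CPM at 0 h and 177, 412 and 355 CPM at 4 h (log2FC 9.69 ± 0.86). CML39 had 0 counts at 0 h and 16.4, 22.6 and 15.9 CPM at 4 h, at least 511-fold higher. The calmodulin-like gene CML41 had a wide spread at 4 h (42.6, 404 and 170.1 CPM). CNGC4 and CNGC2, which form a calcium channel in pattern-triggered immunity, were the members that fell, CNGC4 at 124, 94.5 and 106 CPM at 0 h and 15.4, 21.6 and 18.4 CPM at 4 h (log2FC -2.55 ± 0.15, adjusted p = 4.24e-10) and CNGC2 at 183, 149.8 and 137 CPM at 0 h and 66.4, 76.2 and 61.9 CPM at 4 h (log2FC -1.20 ± 0.14, adjusted p = 1.66e-06).

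Of 6 CAMTA genes, 2 rose (33.3%, against 18.3% of all genes tested). CAMTA3, a calmodulin-binding factor whose loss causes autoimmunity, stood at 34, 28.2 and 26.7 CPM at 0 h and 483, 535 and 573 CPM at 4 h (log2FC 4.16 ± 0.19, adjusted p = 1.68e-11) and CAMTA4 at 36.3, 33.9 and 32.8 CPM at 0 h and 126, 139 and 168 CPM at 4 h (log2FC 2.07 ± 0.18). Their relatives CAMTA1 and CAMTA2 had log2FC of 0.50 and 0.77 and were not called. CAMTA3 overlaps an exon on the other strand.

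A list of 417 immediate-early genes, which the study took from plants expressing the coiled-coil part of the barley receptor MLA and from seedlings treated with the translation blocker cycloheximide, and not from these libraries, was followed too. Of its 414 measured members, 379 (91.5%) rose and 1 fell at 4 h, with a median log2FC of 3.57. In Col-0 10 rose and 68 fell (median -0.34), and the interaction called 380 of them positive. Their summed level went from 6972 to 9300 CPM at 0 h up to 92470 to 115300 CPM at 4 h. CGCG was in 25.6% of their promoter windows, against 13.0% of all windows. The other motifs were GAANNTTC in 22.2% (11.6% of all windows), TTGAC in 59.7% (50.5%), CCGAC in 16.7% (15.0%) and AAAATATCT in 5.31% (2.82%). The study had itself reported CAMTA motifs as over-represented in these genes. It gave the core as CGyG, where y is C or T, and used several CAMTA and related motifs in 5′ regulatory regions. The search for CGCG alone in the windows used here differs from that, so the shares are not comparable. From 4 h to 8 h 177 of the 414 fell and 17 rose (background 25.1% falls; median -0.90), and of the 379 that had risen at 4 h 160 fell and 16 rose. The 1 fall at 4 h was PUB19, a ubiquitin ligase gene (log2FC -3.95).

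The 8 genes chosen by the study for RT-qPCR all rose, with a median of 10.19, or 10.08 with BON3 at its bound. BON3, a copine gene of the BONZAI family that restrains cell death, had 0 counts at 0 h and 27.2, 15.9 and 26.8 CPM at 4 h and was at least 635-fold higher. DLAH, an acylhydrolase gene, moved from 0.159, 0 and 0.147 CPM to 97.2, 158 and 147 CPM (log2FC 10.22 ± 0.48), and AT5G41730, a protein kinase gene, from 0.0317, 0.0412 and 0 CPM to 38.1, 32.9 and 41.5 CPM (log2FC 10.36 ± 0.50).

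Genes tied to cell death and oxidative stress had 11 rises and 1 fall among 14 (median 7.57, or 6.28 with genes at 0 counts at their bound). MC8, a metacaspase gene, stood at 0.254, 0.247 and 0.294 CPM at 0 h and 512, 473 and 806 CPM at 4 h (log2FC 11.11 ± 0.44, adjusted p = 3.64e-12) and its groups lay far apart. OXI1, a kinase activated by hydrogen peroxide, stood at 0.222, 0.206 and 0.184 CPM at 0 h and 137, 100.1 and 193 CPM at 4 h (log2FC 9.42 ± 0.57) and PLP2, a patatin-like lipase gene, at 0.127, 0.206 and 0.331 CPM at 0 h and 271, 176 and 496 CPM at 4 h (log2FC 10.47 ± 0.55). BAP1, which works with BON1 to suppress cell death, gave 0.254, 0.742 and 0.626 CPM at 0 h and 309, 376 and 449 CPM at 4 h (log2FC 9.48 ± 0.56). CAT2, the main leaf catalase gene, was the member that fell, with log2FC -1.29.

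Indole and aliphatic branches of sulphur defence metabolism parted. Of 14 measured genes of camalexin and indole glucosinolates, 10 rose and 2 fell (median 4.88, or 3.59 with genes at 0 counts at their bound). PAD3, the last enzyme of camalexin synthesis, moved from 0.0635, 0.371 and 0.221 CPM to 86.2, 40.1 and 106 CPM (log2FC 8.52 ± 0.49, adjusted p = 2.59e-10), CYP71A12 from 0.0635, 0 and 0.221 CPM to 72.4, 36.1 and 91 CPM (log2FC 9.37 ± 0.52) and CYP81F2, which modifies indole glucosinolates, from 0.286, 0.124 and 0.294 CPM to 249.5, 308 and 475 CPM (log2FC 10.46 ± 0.73). All 3 were clear of their 0 h ranges. FOX1, an oxidoreductase gene of the indole carbonyl nitrile pathway, rose most (log2FC 10.73). CYP71A13, the near copy of CYP71A12, ran the other way, from 16.6 ± 3.91 to 6 ± 2.39 CPM (mean ± SD, log2FC -1.47 ± 0.38, adjusted p = 0.00349). MYB34, which regulates indole glucosinolates, fell in 35S:RPS4 (log2FC -1.97) and also in Col-0 (-2.40). The count of 2 falls was 0 to 1 in some alternatives.

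Of 15 aliphatic glucosinolate genes 12 fell (median -3.65, Col-0 -1.05), with 8 negative interaction calls. MYB29, a master regulator of this branch, went from 31.8, 25.6 and 26.8 CPM to 0.4, 0.196 and 0.0808 CPM (log2FC -7.00 ± 0.51, adjusted p = 4.66e-09), and MYB76, its relative, from 3.02, 1.4 and 2.47 CPM to 0.05, 0 and 0 CPM (log2FC -6.94 ± 0.85). CYP79F1, an entry enzyme, stood at 318, 107 and 299 CPM at 0 h and 6.15, 31 and 4.48 CPM at 4 h (log2FC -4.11 ± 0.69, adjusted p = 7.53e-05). Its replicate 2 lay low at 0 h and high at 4 h, as in several genes of this list, yet the groups did not overlap. By 8 h the list had fallen further, with 10 more falls from 4 h to 8 h and a median of -3.02.

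Jasmonate genes responded differently in the lines. Of 18 genes, 9 rose in 35S:RPS4 (median 2.23) and 13 fell in Col-0 (median -3.55), and the interaction called 14 (median 5.88). LOX4, a lipoxygenase gene of jasmonate synthesis, stood in 35S:RPS4 at 35.7, 12.9 and 24.7 CPM at 0 h and 691, 944 and 1006 CPM at 4 h (log2FC 5.17 ± 0.68, adjusted p = 5.83e-06) and in Col-0 at 14.7, 108 and 183 CPM at 0 h and 8.24, 12.4 and 5.09 CPM at 4 h (log2FC -3.57 ± 0.64, adjusted p = 6.46e-04). JAZ1, a repressor of jasmonate responses, stood at 11.3, 5.23 and 16.2 CPM at 0 h and 236, 385 and 358 CPM at 4 h (log2FC 4.90 ± 0.81, adjusted p = 6.20e-05) and in Col-0 at 8.54, 74 and 86.2 CPM at 0 h and 4.47, 6.84 and 2.95 CPM at 4 h (log2FC -3.56 ± 0.77, adjusted p = 0.00273). Col-0 0 h replicate 1 was the low library of its group (mean log2 level of the list 4.38, against 7.49 and 7.25 in replicates 2 and 3). It lay within the range of the 35S:RPS4 libraries at 0 h, and replicates 2 and 3 lay above that range. The mean log2 level of the list was 3.88 to 5.15 at 0 h and 6.83 to 7.17 at 4 h in 35S:RPS4, and 4.38 to 7.49 and 2.86 to 4.04 in Col-0. The count of Col-0 falls was 7 to 15 with 1 library left out (8 without Col-0 4 h replicate 1 and 7 without Col-0 4 h replicate 3), 7 by limma voom and 3 when only the groups compared were fitted, while the interaction called 14 with any 1 library left out. MYC2, the main transcription factor of the pathway, was not called in 35S:RPS4 (269, 126 and 357 CPM at 0 h and 370.3, 359.5 and 247 CPM at 4 h, log2FC 0.38 ± 0.48, adjusted p = 0.522), nor was the wound marker gene VSP1 (log2FC 0.23).

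**Figure D5:**
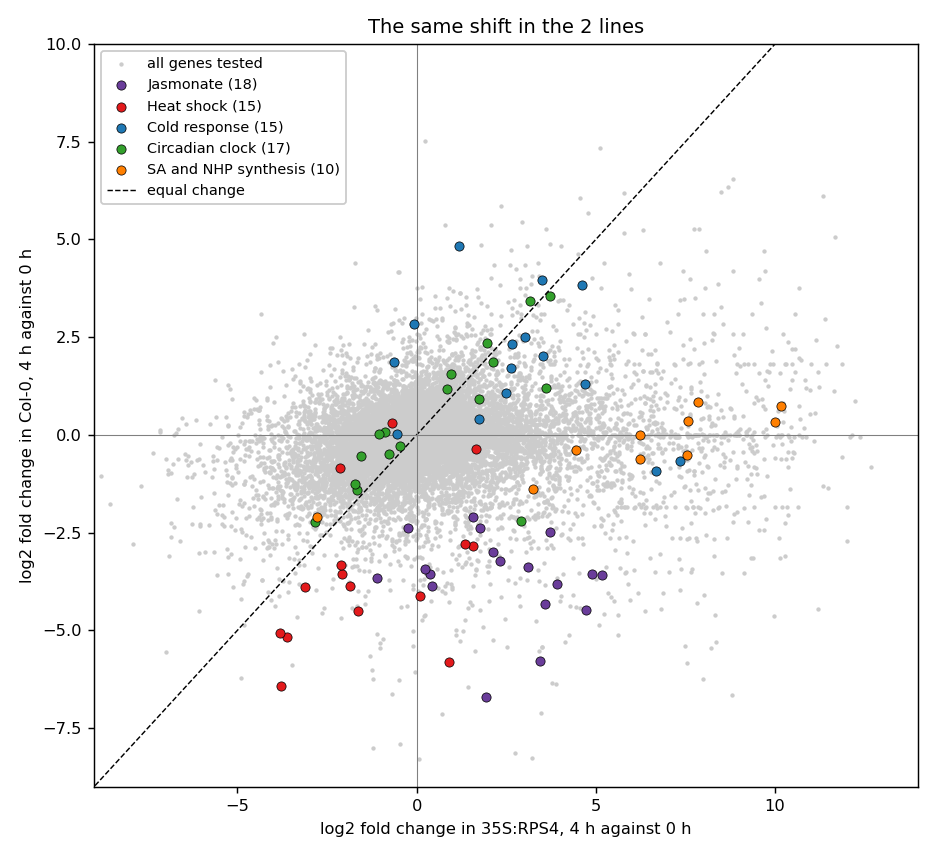
log2FC at 4 h against 0 h in 35S:RPS4 (horizontal) and in Col-0 (vertical) for genes tested, with jasmonate, heat shock, cold, clock and SA synthesis genes in colour. Most jasmonate genes lie right of 0 in 35S:RPS4 and under 0 in Col-0 (medians 2.23 and -3.55), and most SA synthesis genes lie far to the right (medians 6.89 and -0.19).

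Ethylene genes rose in 12 of 15 cases (median 6.06, or 5.36 with genes at 0 counts at their bound). In Col-0 2 of the 15 rose and 2 fell, and the interaction called only 7, all positive. ACS2, an enzyme gene of the rate-limiting step of ethylene synthesis, had 0 counts at 0 h and 25.1, 23.3 and 15.8 CPM at 4 h, at least 585-fold higher. The response factor gene ERF6 moved from 0.159, 0.0824 and 0.331 CPM to 88.1, 244 and 166 CPM (log2FC 9.72 ± 0.67). ERF104 rose in both lines, in 35S:RPS4 at 0.254, 0.206 and 0.11 CPM at 0 h and 28.2, 119.6 and 53.1 CPM at 4 h (log2FC 8.41 ± 0.64) and in Col-0 by a log2FC of 3.85. In these ERF genes replicate 1 was the lowest of the 4 h libraries. Abscisic acid genes had 3 rises and 3 falls among 11 measured (27.3% each, against 18.3% and 14.8% of all genes tested). PP2CA and HAB1, phosphatases that damp abscisic acid signalling, fell (log2FC -2.76 and -2.74), and CYP707A3, which degrades the hormone, rose from 2 counts over the 0 h libraries, a ratio of 438 (95% binomial interval 120.8 to 3624). ERF105, like ERF104 a response factor, gave a log2FC of 8.83 in 35S:RPS4 and 6.54 in Col-0, where it was not called (adjusted p = 0.0283 in edgeR's quasi-likelihood test).

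Heat shock genes were falling in Col-0 after the plants left 28 °C, and fell less in 35S:RPS4. Of 15 measured genes, 12 fell in Col-0 (median -3.87), whereas in 35S:RPS4 7 fell and 3 rose (median -1.87), and the interaction called 8 positive. AT3G46230, the small heat shock protein gene HSP17.4, stood at 29.5, 68.9 and 77.3 CPM at 0 h and 6.85, 1.64 and 5.82 CPM at 4 h in 35S:RPS4 (log2FC -3.63 ± 0.52, adjusted p = 1.48e-05) and at 70.2, 37.5 and 35.8 CPM at 0 h and 0.796, 2.37 and 0.778 CPM at 4 h in Col-0 (log2FC -5.18 ± 0.57, adjusted p = 8.77e-06). HSP17.6A, a relative, had a log2FC of -3.77, and copies of the small heat shock genes are near-identical in part. The 4 h libraries were uneven, with replicate 2 lowest for both genes. GAANNTTC was in 8 of 15 promoter windows of the list (53.3%, against 11.6% of all windows). The mean log2 level of the list was 4.87 to 5.59 at 0 h and at most 4.55 at 4 h in 35S:RPS4, and 4.98 to 5.23 and 1.80 to 2.11 in Col-0. HSFA2, a heat shock factor gene, had a log2FC of 0.90 in 35S:RPS4 and -5.80 in Col-0 (interaction log2FC 6.70 ± 0.72, adjusted p = 1.28e-06).

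Folding genes of the endoplasmic reticulum rose in part. Of 13, 6 rose (median 0.82). BZIP60, a factor of the unfolded protein response, moved from 29.9, 33.8 and 42.3 CPM to 515, 424 and 691 CPM (log2FC 3.94 ± 0.21, adjusted p = 1.11e-10) and CRT3, a calreticulin gene needed for the receptor EFR, from 48.1, 41.9 and 53.7 CPM to 223, 247 and 272 CPM (log2FC 2.37 ± 0.22). BIP1 and BIP2, the abundant chaperone genes, were not called (log2FC 0.25 and 0.54). From 4 h to 8 h 11 of the 13 rose (median 3.21).

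Cold genes rose in part in both lines. Of 15 genes, 10 rose in 35S:RPS4 (median 2.67) and 8 in Col-0 (median 1.88), 6 of them in both, with 3 positive and 2 negative interaction calls. Without Col-0 0 h replicate 1 the positive interaction calls were 6, the negative calls were 1 when any 1 library other than Col-0 0 h replicate 2 was left out, and the Col-0 rises were 4 when only the groups compared were fitted. COR15B, which encodes a chloroplast protein that protects membranes in the cold, moved in 35S:RPS4 from 19.2, 19.9 and 18.4 CPM to 469.6, 378 and 552 CPM (log2FC 4.61 ± 0.36, adjusted p = 1.13e-08), and its log2FC in Col-0 was 3.83. LTI30, a dehydrin gene with 3 CCGAC cores, stood at 0.381, 0.165 and 0.478 CPM at 0 h and 16.2, 17.2 and 18.5 CPM at 4 h (log2FC 5.62 ± 0.88, Col-0 2.84). ZAT10 and ZAT12, zinc finger factors of cold and oxidative stress, rose in 35S:RPS4 (log2FC 7.36 and 6.67) and had log2FC of -0.67 and -0.93 in Col-0. CBF2 and CBF3, cold regulators that bind CCGAC, had the larger log2FC in Col-0. CBF3 stood at 0.54, 0.288 and 1.55 CPM at 0 h and 1.85, 1.88 and 1.66 CPM at 4 h in 35S:RPS4 and at 0.486, 0.631 and 0.441 CPM at 0 h and 16.6, 14.2 and 13.7 CPM at 4 h in Col-0, so the 4 h libraries of 35S:RPS4 lay under those of Col-0 (interaction log2FC -3.65 ± 0.54, adjusted p = 3.65e-05). CBF2 had a log2FC of -0.07 in 35S:RPS4 and 2.84 in Col-0 (interaction log2FC -2.92 ± 0.82, adjusted p = 0.00859).

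Clock genes changed in both lines. Of 17, 7 rose and 5 fell in 35S:RPS4, and 7 rose and 4 fell in Col-0, with 2 positive and 1 negative interaction calls. FKF1, a blue-light receptor gene with an evening element in its promoter, stood at 0.984, 1.32 and 2.1 CPM at 0 h and 12.8, 10.2 and 16.3 CPM at 4 h in 35S:RPS4 (log2FC 3.16 ± 0.22) and had a log2FC of 3.42 in Col-0. PRR5 gave log2FC of 3.72 and 3.55. TOC1, an evening gene, stood at 5.52, 7.09 and 5.85 CPM at 0 h and 79.3, 57.5 and 90.3 CPM at 4 h (log2FC 3.62 ± 0.18), and rose more than in Col-0 (interaction log2FC 2.43 ± 0.24, adjusted p = 5.84e-07). BOA, a relative of LUX, had a log2FC of 2.92 in 35S:RPS4 and a log2FC of -2.19 in Col-0 (interaction log2FC 5.11 ± 0.47, adjusted p = 2.06e-07). AAAATATCT was in 6 of 17 windows of these genes (35.3%, against 2.82% of all windows).

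Many genes tied to growth fell, both promoters and restrainers of it. Of 9 genes of cell wall loosening, 7 fell (median -1.89, Col-0 0.22), with 4 negative interaction calls. EXPA11, an expansin gene, moved from 16.5, 17.7 and 24.2 CPM to 0.8, 1.13 and 1.49 CPM (log2FC -4.07 ± 0.44, adjusted p = 5.14e-07) and EXPA5 from 67.7, 75.4 and 93 CPM to 18.5, 22.8 and 15.4 CPM (log2FC -2.06 ± 0.23). Of 13 auxin response genes, 7 fell and 1 rose, with IAA14, a repressor of auxin response, at 33.3, 23.8 and 28.9 CPM at 0 h and 4.15, 3.09 and 2.42 CPM at 4 h (log2FC -3.16 ± 0.36) and PIN3, an auxin efflux carrier, at 27.2, 44.3 and 18.7 CPM at 0 h and 4.15, 4.3 and 5.17 CPM at 4 h (log2FC -2.72 ± 0.28). In none of these 4 genes did the groups overlap. Of 11 measured genes of growth in light and warmth 6 fell and 1 rose. HFR1, which restrains shade growth, had a log2FC of -4.33, HY5, a light-signalling factor, -2.33, and PRE1, a growth-promoting factor, -3.19. The count of 6 was 3 without 35S:RPS4 0 h replicate 1. ATHB2, a shade response factor gene, rose (5.33, 5.15 and 4.49 CPM at 0 h and 27.1, 16.9 and 27.6 CPM at 4 h, log2FC 2.25 ± 0.33). KNOLLE, a syntaxin gene of dividing cells, fell (4.79, 5.23 and 7.33 CPM at 0 h and 1.6, 1.64 and 1.98 CPM at 4 h, log2FC -1.73 ± 0.31). At 8 h the cell wall list had fallen further (7 of 9 lower than at 4 h, median -5.43).

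Leaf identity was checked with photosynthesis genes, which stood at summed levels of 97380 to 108700 CPM at 0 h and 66780 to 77730 CPM at 4 h. Of 23 such genes 2 fell (8.7%, under the 14.8% of all genes tested; median -0.60, Col-0 -0.16), 6 fell with scaling by the library total and 15 with no fold threshold. RCA, Rubisco activase, moved from 18110, 18090 and 21010 CPM to 8604, 8754 and 7905 CPM (log2FC -1.18 ± 0.16, adjusted p = 7.94e-06). RBCS1B, a small subunit of Rubisco, moved from 1257, 1798 and 1299 CPM to 601, 484 and 529 CPM (log2FC -1.43 ± 0.26, adjusted p = 1.70e-04), and its log2FC in Col-0 was -1.05. From 4 h to 8 h 22 of the 23 fell (median -1.75). Chlorophyll synthesis genes had 2 falls, CAO and GUN4 (log2FC -1.81 and -1.74), and 1 rise, PORB (2.08), among 6. The shares were 33.3% for falls and 16.7% for rises, against 14.8% and 18.3% of all genes tested.

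Markers of the outer cell layer moved with the main contrast. Of 7 measured epidermis and trichome genes 6 fell (median -1.88; Col-0 2 falls, median -0.38; 4 negative interaction calls), and their summed level went from 2258 to 2300 CPM at 0 h to 487 to 599 CPM at 4 h. CER6, a wax synthesis gene, stood at 439, 403 and 286 CPM at 0 h and 35, 29.2 and 28.8 CPM at 4 h (log2FC -3.60 ± 0.21, adjusted p = 3.40e-10) and fell in Col-0 too (log2FC -2.56). In bulk leaves fewer cells of a type and less RNA per cell cannot be told apart. PYK10, a root-abundant glucosidase gene, fell from 44.1, 31.8 and 74.2 CPM to 1.05, 11 and 2.58 CPM (log2FC -3.34 ± 0.72), and CASP1, AP3, CRA1 and OLE1, markers of root, flower and seed, were at or near 0 and did not pass the filter. Of 9 vascular genes edgeR, DESeq2 and limma voom called 0, and 0 had an unadjusted p under 0.05 (median 0.24). They include AHA3 (log2FC 0.24) and SWEET11 (-0.03). That median was -0.17 without 35S:RPS4 0 h replicate 2. Of 6 guard cell genes 1 rose (16.7%, against 18.3% of all genes tested), GC1 (log2FC 1.39), a count of 0 to 3 in the alternatives. Of 10 reference genes used for normalisation in plants 2 rose, UBQ10 (921, 1236 and 597 CPM at 0 h and 2307, 2322 and 2975 CPM at 4 h, log2FC 1.47 ± 0.23, adjusted p = 4.34e-05) and UBC9 (from 106 ± 9.6 to 226 ± 25 CPM, mean ± SD; log2FC 0.84 and not called by the library total), and the median was 0.13, or -0.13 by the library total. The part of these marker shifts in the other results was not tested.

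The 12 largest rises among genes with a symbol in the annotation used, at least 5 CPM and groups apart (CML39, described earlier, has no symbol there) were BON3, ACS2, CRK39, NAC090, RLP52, TDR1, ACT12, PP2-B14, MC8, FUT4, PER4 and MPK11. All had a mean under 1 CPM at 0 h. For BON3, ACS2, RLP52 and ACT12, with 0 counts at 0 h, the log2FC behind this ranking rests on a small count that edgeR adds. Only their bounds are measured, so whether they belong among the 12 is uncertain. CRK39, a receptor kinase gene, had 3 counts at 0 h and 177, 97 and 179 CPM at 4 h, a ratio of 4110 with a 95% binomial interval of 1406 to 19930. NAC090, a NAC transcription factor gene, had 2 counts and 94.4, 62.4 and 121 CPM, a ratio of 3824 (1058 to 31580). RLP52, a receptor-like protein gene, had 0 counts and 13.5, 10.1 and 18.7 CPM, at least 389-fold higher. ACT12, an actin gene better known from pollen, had 0 counts at 0 h and 14.8, 6.49 and 12.9 CPM at 4 h, at least 307-fold higher, and it overlaps another exon. FUT4, a fucosyltransferase gene, stood at 0.254, 0 and 0.0368 CPM at 0 h and 159.5, 227 and 290.2 CPM at 4 h (log2FC 10.98 ± 0.80, adjusted p = 4.52e-09). PER4, a peroxidase gene, stood at 0.0317, 0 and 0.0368 CPM at 0 h and 52.3, 42.4 and 64.1 CPM at 4 h, and TDR1, an AP2/ERF factor gene, went from 1 count to 27.1, 39.4 and 73.9 CPM.

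The 10 largest falls by the same rule were MYB29, EDA12, GDU4, BR6OX2, YUC2, YUC6, FMO GS-OX3, KCS2, CYP81F4 and ACA1. Hormone synthesis stood among them. BR6OX2, an enzyme of brassinosteroid synthesis, went from 20.7, 16.3 and 28.1 CPM to 0.25, 0.274 and 0.242 CPM (log2FC -6.38 ± 0.31, adjusted p = 4.25e-11), and the auxin synthesis genes YUC2 and YUC6 from 7.9, 4.99 and 6.04 CPM to 0.15, 0.0391 and 0.0404 CPM and from 5.21, 6.06 and 6.48 CPM to 0.15, 0.0782 and 0.0404 CPM. Their log2FC in Col-0 were -0.76, -0.53 and -0.24, and the interaction was -5.62, -5.85 and -5.79. KCS2, which elongates fatty acids for waxes and suberin, stood at 14.1, 21 and 10.5 CPM at 0 h and 0.25, 0.156 and 0.485 CPM at 4 h (log2FC -5.65 ± 0.57) and ACA1, an alpha carbonic anhydrase gene, at 141, 152 and 193 CPM at 0 h and 3.7, 3.95 and 3.63 CPM at 4 h (log2FC -5.43 ± 0.33). FMO GS-OX3, of the aliphatic glucosinolate branch, stood at 92.8, 48 and 112 CPM at 0 h and 1.3, 2.97 and 0.687 CPM at 4 h. GDU4, a glutamine dumper gene, stood at 8.6, 7.5 and 17.9 CPM at 0 h and 0.05, 0.156 and 0.0808 CPM at 4 h (log2FC -6.78 ± 0.87). CYP81F4, an indole glucosinolate gene, was uneven at 0 h (3.08, 1.03 and 13.9 CPM), and its call ended without 35S:RPS4 0 h replicate 3 (log2FC -3.98, adjusted p = 0.012 in edgeR's quasi-likelihood test).

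Among genes called the same way in both lines, with no interaction call, the 6 with the largest change were ERF104, COR15B, LTI30, GolS2, HB-12 and UGT78D3. UGT78D3, a flavonol arabinosyltransferase gene, stood at 0.159, 0.0412 and 0.442 CPM at 0 h and 6.65, 3.13 and 5.82 CPM at 4 h in 35S:RPS4 (log2FC 4.56 ± 0.54) and had a log2FC of 6.06 in Col-0. GolS2, a galactinol synthase gene, fell from 57.8, 41.9 and 39.3 CPM to 0.25, 3.09 and 1.41 CPM (log2FC -4.83 ± 1.15, Col-0 -4.87). HB-12, a homeobox gene of abscisic acid response, fell from 86.2, 84.1 and 113 CPM to 3.55, 3.36 and 3.55 CPM (log2FC -4.76 ± 0.52, Col-0 -2.57).

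Opposite calls in the lines with the largest interactions were found for MAPKKK19, CYP82G1, ERF13, RLP53, TCH3 and TAT3, each higher at 4 h in 35S:RPS4 and lower in Col-0. TCH3, a calmodulin-like gene of touch response, stood at 26.3, 22 and 35.3 CPM at 0 h and 7363, 8939 and 9556 CPM at 4 h in 35S:RPS4 (log2FC 8.27 ± 0.61, adjusted p = 5.29e-09) while Col-0 had 67.8 ± 41.1 CPM at 0 h and 18 ± 7.71 CPM at 4 h (mean ± SD, log2FC -1.91 ± 0.46, adjusted p = 0.00569; interaction log2FC 10.19 ± 0.75, adjusted p = 1.55e-08). TAT3, a jasmonate-responsive aminotransferase gene, stood at 45.3, 20.5 and 12.7 CPM at 0 h and 1405, 1678 and 1795 CPM at 4 h and in Col-0 at 14.5, 327 and 169 CPM at 0 h and 13.5, 10.2 and 3.69 CPM at 4 h (interaction log2FC 10.17 ± 1.24, adjusted p = 5.26e-06). CYP82G1, a gene of volatile homoterpene synthesis, stood at 1.02, 0 and 0.0368 CPM at 0 h and 101, 80 and 86.2 CPM at 4 h and in Col-0 at 0.729, 12.1 and 8.48 CPM at 0 h and 0.762, 0.296 and 0.0324 CPM at 4 h. The rise in 35S:RPS4 was clear of its 0 h range in all 6 genes. The Col-0 falls were less secure, since those of CYP82G1, ERF13, RLP53, TCH3 and TAT3 were not called by limma voom or when only the groups compared were fitted, and that of MAPKKK19 not by limma voom.

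By 8 h 2753 genes (13.7%) were higher and 5035 (25.1%) lower than at 4 h in 35S:RPS4. The comparison shares the 4 h libraries with the main one, so values are given side by side. Among genes that had risen at 4 h, the 5 that rose most again were ARD3, WRKY67, UGT73D1, ANAC087 and ABO3. ARD3, an enzyme gene of methionine salvage, went through 0.286, 1.32 and 0.331 CPM, 3.15, 2.42 and 2.14 CPM and 1536, 1347 and 1438 CPM (log2FC 9.13 ± 0.45 from 4 h to 8 h), but its 4 h call ended when only the 2 groups were fitted (adjusted p = 0.0174 in edgeR's quasi-likelihood test). ABO3, a WRKY gene, went through 0.0317, 0.165 and 0.0368 CPM, 5.65, 1.6 and 6.1 CPM and 527, 390.5 and 408 CPM. The 5 that fell most were PP2-B14, CYP707A3, MYB24, IGMT3 and LCR81. PP2-B14, a phloem protein gene, went through 0.0317, 0.0824 and 0.0368 CPM, 82.3, 128 and 164 CPM and 0.0448, 0.0282 and 0.284 CPM (log2FC -10.01 ± 0.48), and IGMT3, an indole glucosinolate methyltransferase gene, through 0.0317, 0.288 and 0.515 CPM, 179, 192 and 331 CPM and 0.582, 0.141 and 0.319 CPM (log2FC -9.49 ± 0.64). Both were thus high at 4 h alone among the 3 times. From 4 h to 8 h the kinase list had 3 rises and 4 falls among 12, the WRKY list 6 and 6 among 24, and the EDS1 hub 2 falls among 10. Of the jasmonate genes 9 of 18 fell (median -1.59), a count of 4 without 35S:RPS4 4 h replicate 2 or any 1 of the 8 h libraries and 5 without 35S:RPS4 4 h replicate 3, and of the ethylene genes 9 of 15 fell (median -2.24).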

How the data were processed

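Poly(A) RNA of leaves was sequenced in paired-end mode after depletion of ribosomal RNA from 2.5 µg of total RNA. Raw read counts per gene were deposited by the authors, who list FastQC 0.11.2, TopHat2 2.0.10 and HTSeq as tools and TAIR10 as the genome build. The version and strand setting of HTSeq are not given in the sources used here, so reads of overlapping genes on opposite strands may not be told apart, and reads without a unique position were left out of the counts, so values of near-identical copies are uncertain. The table listed 32678 genes, and its 5 summary lines were set aside from every fit and total. They held reads in no gene (48.5% to 49.2% of the whole), ambiguous reads (0.252% to 0.369%) and multiply placed reads (1.96% to 2.85%). Columns without a sample numbered 0. Across all 18 libraries the counts in genes were 23876651 to 36291942. TAIR10.1 held 31912 of the genes (97.7%). No 2 libraries of a group were copies (chi-square per gene 13.1 to 119).

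In R 4.3.3, filterByExpr over the 6 groups kept 20023 genes and removed 12655 (7781 of them at 0 in every library). Counts were scaled by TMM and fitted to all 18 libraries with 1 mean per group by the quasi-likelihood method of edgeR 4.0.16. A call needed an adjusted p (Benjamini-Hochberg) under 0.01 and an absolute log2FC above 1. Contrasts were 35S:RPS4 4 h against 0 h, Col-0 4 h against 0 h, their difference (the interaction) and 35S:RPS4 8 h against 4 h. The settings varied were the scaling (median-of-ratios, library total), the filter (none, or at least 1 CPM in 3 libraries), the tool (DESeq2 1.42.0, limma voom 3.58.1), a fit of only the groups compared, the replicate number as a block, no fold threshold and leaving out each library. Bounds on folds use 3 counts over a group in place of 0, and ratios on 1 to 3 counts carry a 95% binomial interval. On simulated counts of 18141 genes with 200 changed, edgeR recovered 72% of 3-fold and 91% of 8-fold changes of the main contrast with 2 calls among unchanged genes, DESeq2 81%, 96% and 6, and voom 70%, 88% and 1. For the interaction edgeR recovered 55% and 81% with 2 such calls. The simulated counts used spreads estimated by edgeR, with as many rises as falls and far fewer changed genes than were called here. They therefore do not show how the tools fare under the large shift in make-up of the 4 h libraries.

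The comparison and the 35 gene lists (420 members, 417 distinct genes, 406 tested), besides the immediate-early list, were chosen with earlier results of these data known. The naming rule took RPS4 and AT5G24240, the 12 largest rises and 10 largest falls among called genes with a symbol, at least 5 CPM in the higher group and groups that did not overlap, up to 4 called members of each list by size of change (else the 2 with the highest CPM), the 6 largest changes called the same way in both lines with no interaction call, the 6 largest interactions called in opposite directions, and the 5 largest rises and falls from 4 h to 8 h among genes risen at 4 h. It gave 155 genes, of which 36 share exon positions with a gene on the opposite strand and 5 with one on the same strand. Named outside the rule, after their values were seen, were RRS1, RRS1B, SNC1, SAG101, NDR1, ADR1, NRG1.1, EDS5, EPS1, ALD1, FMO1, S3H, UGT76B1, NPR1, PR1, PR2, PR5, WRKY8, WRKY41, WRKY70, FLS2, EFR, RBOHD, RBOHF, MEKK1, MPK4, MPK6, CNGC2, CNGC4, CML41, CAMTA1, CAMTA2, BON1, CAT2, CYP71A13, MYB34, MYC2, VSP1, HSFA2, BIP1, BIP2, CBF2, CBF3, LUX, CASP1, AP3, CRA1, OLE1 and PUB19. Plots used matplotlib 3.10.9 in Python 3.11.15.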

Additional observations from a re-analysis of the deposited data

Results flagged for a closer look

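The test of the difference between the lines called 3007 genes with a higher and 2049 with a lower response to the shift in 35S:RPS4 than in Col-0. Of the 155 genes named by the rule, 15 were called higher at 4 h in 35S:RPS4 and lower in Col-0. The 6 taken for the size of that difference had an interaction log2FC of 13.37 for MAPKKK19, 12.13 for CYP82G1, 12.10 for ERF13, 11.11 for RLP53, 10.19 for TCH3 and 10.17 for TAT3. With 3 libraries in a group, no library was tested as an outlier.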

How the results depend on the processing

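The main contrast gave 3663 rises and 2972 falls, and 3527 and 3149 by median-of-ratios scaling, 3043 and 3941 by the library total, 3614 and 3314 by DESeq2, 3642 and 2892 by limma voom and 3367 and 2916 when only the groups compared were fitted. Leaving out 1 library gave 3410 to 3637 rises and 2580 to 2972 falls. Counts over all genes that moved by over 1.5 times were the Col-0 rises (1597) and falls (1569) and the 8 h rises over 4 h (4510) with no fold threshold, the Col-0 falls with only the groups compared (579) and the negative interactions by the library total (3312); the cause of the last 2 was not tested. Of the counts of list members in the main contrast, 36 moved by as much and 1044 did not; in the other contrasts such moves with 1 library left out came from counts of at most 4 except for the jasmonate list. No called value reversed. Of 155 named genes, 153 were called in the main contrast and 139 of these kept their call in every setting. Same-numbered libraries of 35S:RPS4 at 0 h and 4 h did not deviate together (correlations -0.0373, -0.0559 and -0.154), but so few values cannot exclude a pairing. Between 35S:RPS4 and Col-0 at 4 h, same-numbered libraries gave 0.207, 0.00917 and 0.212, and other pairs -0.247 to 0.0816. In Col-0 between 0 h and 4 h, same-numbered libraries gave 0.187, -0.00904 and 0.0218, and other pairs -0.139 to 0.141. With the replicate block the main contrast gave 3657 rises and 2948 falls. Time of day ran with hours after the shift, and the libraries limit calls of genes near the floor of 3 counts.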
